A study of Mus musculus with 16 samples.

Results

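The genes described are the cadherins and protocadherins of the mouse, taken as every row of the deposited expression table whose symbol belongs to the Cdh, Cdhr, Pcdh, Celsr or Fat families. There were 103 such genes among 21999 in the table. They comprised 18 classical cadherins (5 of type I and 13 of type II), 56 clustered protocadherins (13 alpha, 22 beta and 21 gamma), 12 non-clustered protocadherins, 10 other cadherins, 3 Celsr genes and 4 Fat genes. The study sequenced poly(A) RNA from the hippocampus and the cortex of mice in which Foxp1, a forkhead transcription factor, was conditionally deleted (Foxp1cKO), and of littermate controls. The 4 groups were Foxp1cKO hippocampus, control hippocampus, Foxp1cKO cortex and control cortex, with 4 libraries each. All mice were male and 47 days old, and the left hemisphere was used. The series title speaks of forebrain pyramidal neurons, but the labels name neither the Cre line nor the deleted exons. Replicates within a genotype are described as independent, and whether a hippocampal and a cortical library came from 1 mouse is not stated.

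Cadherins are cell-surface proteins that bind cadherins on a neighbouring cell through calcium-dependent extracellular repeats. Classical cadherins link through catenins to actin, and different neuron populations carry different type II members. Clustered protocadherins are read from tandem promoters, so that single neurons display different combinations and recognise their own branches. Delta protocadherins lie outside those clusters, and several act at synapses and in axon sorting. Fat and Celsr proteins are very large cadherins that orient cells and guide axons.

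Values are CPM, a gene's count of reads scaled to the same total in every library. The libraries held 6943136 to 14817870 such reads, so that 1 read was worth 0.0675 to 0.144 CPM. Foxp1 was 119 ± 16.0 CPM in Foxp1cKO hippocampus and 227 ± 45.3 CPM in control hippocampus (SD, n = 4 each), or 52.3% of the control mean. In cortex it was 113 ± 21.2 CPM in Foxp1cKO and 284 ± 14.1 CPM in controls, or 39.9%. In both regions the groups were separate, with a two-sided exact permutation p of 0.0286, the smallest that 4 against 4 allows. Of 10 hippocampal markers, 9 were higher and 0 lower in hippocampus than in cortex in Foxp1cKO mice, and 10 were higher in controls. Of 10 cortical neuron markers, 7 were lower and 2 higher in hippocampus in Foxp1cKO mice, and 8 were lower and 1 higher in controls. In cortex, 9 of 10 oligodendrocyte markers fell, with summed levels of 3147 to 4209.7 CPM in Foxp1cKO and 5285 to 7232 CPM in controls, and 7 of 8 striatal markers rose, with sums of 444 to 671 CPM in Foxp1cKO and 179 to 393 CPM in controls. In cortex 4 of 10 cortical neuron markers also rose and 3 fell, 2 of 7 tested hippocampal markers rose, and 2 of 7 interneuron and 2 of 8 astrocyte markers fell. In hippocampus no oligodendrocyte or striatal marker was called by limma or by edgeR. Of 10 hippocampal markers, 2 fell there. At an unadjusted p below 0.05, 0 of the 10 oligodendrocyte and 1 of the 8 striatal markers passed there with either tool. The hippocampal sums overlapped, at 6581 to 9454 CPM in Foxp1cKO and 5275 to 13803 CPM in controls for oligodendrocytes, and 279 to 630 CPM in Foxp1cKO and 67.1 to 593 CPM in controls for striatum. The 5 excitatory neuron markers summed to 3044 to 3361 CPM in Foxp1cKO hippocampus and 3384 to 4201 CPM in control hippocampus without overlap, though none was called by limma or edgeR and 2 had an unadjusted p below 0.05 with each. Of 10 hippocampal markers, 2 fell in Foxp1cKO hippocampus. Fits with an oligodendrocyte or a striatal marker score as a covariate each kept all 3 member calls in hippocampus given below. Over all genes 376 were called there with the oligodendrocyte score and 252 with the striatal score, against 192 without. The part of the other markers in the hippocampal results was not tested. In tissue RNA, fewer cells of a type and less RNA per cell cannot be told apart.

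The non-clustered protocadherins had the largest summed CPM of the classes in every group. Their 12 genes summed to 1808 to 2082 CPM in Foxp1cKO hippocampus and 1738 to 2009 CPM in control hippocampus. In cortex they summed to 1837 to 1935 CPM in Foxp1cKO and 1959.5 to 2097 CPM in controls, and the groups did not overlap. That fall lay in the 4 delta-1 genes, mostly Pcdh7, with mean sums of 1030 CPM in Foxp1cKO cortex and 1305 CPM in control cortex. The other non-clustered genes were higher in Foxp1cKO cortex. Mean sums were 683 CPM in Foxp1cKO and 624 CPM in controls for the 5 delta-2 genes, and 173 and 124 CPM for the remaining 3. The 18 classical cadherins summed to 790 to 850 CPM in Foxp1cKO hippocampus and 836 to 901 CPM in control hippocampus, which overlapped.

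In cortex the classical sums were 860 to 905 CPM in Foxp1cKO and 851 to 930 CPM in controls, on both sides of each other. The 56 clustered protocadherins summed to 540 to 609 CPM in Foxp1cKO hippocampus and 551 to 566 CPM in control hippocampus. In cortex their sums were 609 to 626 CPM in Foxp1cKO and 533 to 589 CPM in controls, higher in every Foxp1cKO library. As ratios of group means, Foxp1cKO over control, the clustered sum stood at 1.00 in hippocampus and 1.07 in cortex, and the non-clustered sum at 1.01 in hippocampus and 0.919 in cortex.

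**Figure D1:**
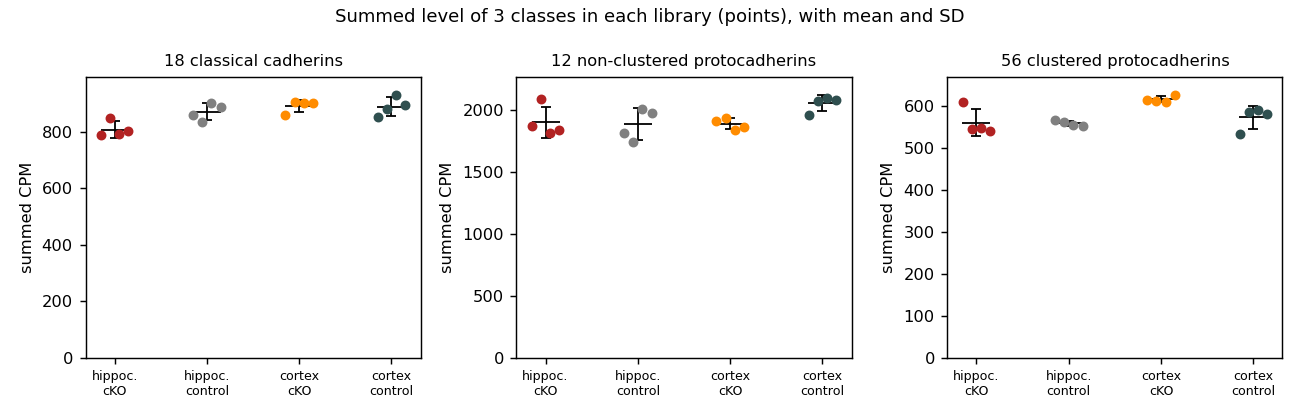
Summed CPM (vertical axis) of the classical cadherins, non-clustered protocadherins and clustered protocadherins in the 16 libraries (points), by region and genotype, with the mean and SD of 4 libraries (bars). In cortex all 4 Foxp1cKO libraries lie above the controls for the clustered class and below them for the non-clustered class, and the classical sums of the genotypes overlap in both regions. The lower non-clustered sums in Foxp1cKO cortex come from the delta-1 genes, mostly Pcdh7.

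Per kilobase of merged exon (clustered genes left out), the most abundant members over the 4 groups were Pcdh9 at 49.7 CPM per kb, Pcdh7 at 47.0, Pcdh20 at 30.7 and N-cadherin (Cdh2) at 28.3. Pcdh10, Cdh11 and Cdh9 followed at 19.8, 19 and 18.5 CPM per kb. The order differed between groups, and the spread of these per-length means was not compared. In hippocampus Pcdh9 led at 50.5 CPM per kb in Foxp1cKO and Pcdh20 at 57.6 in controls. In cortex Pcdh7 led at 50.5 CPM per kb in Foxp1cKO and 74.9 in controls, where Pcdh20 stood at 13.0 in Foxp1cKO and 8.91 in controls. At the other end, 12 members stayed below a mean of 0.5 CPM in both regions and were not tested. These were Cdh15, Cdh16, Cdh17, Cdh26, Cdhr2, Cdhr4, Cdhr5, Fat2, Pcdh12, Pcdha4, Pcdha8 and Pcdhb1, of which Cdh16 had no read in any library. Tests were made on 91 members in hippocampus, 89 in cortex and 90 over all 16 libraries.

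In hippocampus 3 of the 91 tested members passed an adjusted p of 0.05 (limma on log2(CPM + 0.5), Benjamini-Hochberg adjustment over all 13899 genes), against 1.38% of all genes. The cadherins Cdh12 and Cdh8 fell and Cdhr1 rose, that is 2 lower against 0.719% of all genes and 1 higher against 0.662%. Over all genes the split was 92 higher and 100 lower, against 60 and 135 with median-of-ratios rescaling, 56 and 109 with quantile normalization and 59 and 131 with edgeR. With edgeR on the recovered reads 3 members were called as well, and 14 members had an unadjusted limma p below 0.05. The median log2 fold change was 0.01 over the members and 0.06 over all genes, and the median size of change was 0.14 over the members and 0.11 over all genes. Without Foxp1cKO replicate 16 or 19 the count of called members was 1, Cdh12. The 2 genotypes did not overlap for 7 members, against 8.01% of all genes.

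Cdh12, a type II cadherin (GRCm38 chr15:20449265-21589533, plus strand), had 23.3, 23.5, 23.5 and 24.4 CPM in the Foxp1cKO hippocampi and 45.3, 42.9, 36.1 and 42.0 CPM in the control hippocampi. The Foxp1cKO libraries lay close together and below every control, with a log2 fold change of -0.80 ± 0.09 (SE) at an adjusted p of 0.00101. Cdh12 also fell in cortex, where it had 67.5, 71.4, 62.8 and 63.2 CPM in Foxp1cKO and 71.7, 93.6, 90.7 and 105 CPM in controls (log2 fold change -0.43 ± 0.09, adjusted p = 0.00348). The highest Foxp1cKO value was just under the lowest control value there. Both calls kept their direction and threshold with any 1 library left out. The cortical call was lost with the oligodendrocyte score as a covariate (-0.61, adjusted p = 0.20) and held with the striatal score (-0.55, adjusted p = 0.026).

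The windows from 250 bases before to 50 bases after the RefSeq starts (GRCm38.p6) were searched on both strands for the forkhead letters GTAAACA and ATAAACA. The search covered 33 member genes, with 36 windows in all. It left out every clustered protocadherin as well as Cdh2, Pcdh1 and Pcdh12. Also not searched, for want of a window, were Cdh1, Cdh3, Cdh4, Cdh5, Cdh11, Cdh13, Cdh16, Cdh17, Cdh19, Celsr1 and Pcdh11x. Its shares are therefore not those of the whole family. Of the 36 windows, 1 (2.78%) held either string, against 7.97% of all 32851 promoters. That one lay 101 bases upstream of a Cdh12 start, and inside the annotated bounds of the Cdh12 gene. It is shown because Cdh12 fell in both regions, with the matching letters in capitals (GRCm38.p6 chr15:21111340-21111369, plus strand). A match is a string of letters and not an observed binding site.
Cdh12: aggagcttggcATAAACAcaggcaaaggag

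Cdh8, a type II cadherin found at hippocampal and thalamocortical synapses, had 70.0, 86.0, 87.3 and 73.9 CPM in the Foxp1cKO hippocampi and 106, 104, 106 and 99.2 CPM in the controls. The groups did not overlap (log2 fold change -0.39 ± 0.08, adjusted p = 0.0353). In cortex Cdh8 was 65.4 ± 4.06 CPM in Foxp1cKO and 60.9 ± 2.17 CPM in controls (log2 fold change 0.10, adjusted p = 0.38). The hippocampal call ended when any of 6 libraries was left out. The adjusted p was 0.062, 0.061 and 0.11 without Foxp1cKO replicate 15, 16 or 19, and 0.13, 0.11 and 0.054 without control replicate 20, 21 or 22.

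The other 11 type II members were not called in hippocampus. Their most abundant one, Cdh11, had 179 ± 17.1 CPM in Foxp1cKO and 185 ± 9.39 CPM in controls. Cdh10 had 59.6 ± 12.0 CPM in Foxp1cKO and 65.3 ± 3.41 CPM in controls. Summed over the 13 type II genes, the called Cdh12 and Cdh8 included, the hippocampal libraries held 514 to 553 CPM in Foxp1cKO and 587 to 617 CPM in controls without overlap. Cdh12 and Cdh8 made up the larger part of the difference between the group means of this sum. None of the 4 tested type I members was called by limma or edgeR, with 0 and 1 at an unadjusted p below 0.05. N-cadherin, the main type I cadherin of neurons, had 243 ± 7.30 CPM in Foxp1cKO hippocampus and 243 ± 21.6 CPM in control hippocampus. Cdh1, the epithelial type I cadherin, had the smallest p of the type I genes at 1.21 ± 1.04 CPM in Foxp1cKO and 0.349 ± 0.141 CPM in controls (adjusted p = 0.42).

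Cdhr1, known as the photoreceptor cadherin (GRCm38 chr14:37077857-37098347, minus strand), rose in both regions. It had 13.6, 13.1, 11.1 and 14.1 CPM in the Foxp1cKO hippocampi and 7.41, 7.88, 5.53 and 7.56 CPM in the controls (log2 fold change 0.83 ± 0.14, adjusted p = 0.0141). In cortex it had 11.1, 11.2, 10.5 and 8.95 CPM in Foxp1cKO and 2.78, 1.88, 2.83 and 3.11 CPM in controls (log2 fold change 1.80 ± 0.17, adjusted p = 9.11e-07). Neither pair of groups overlapped, and the cortical estimate was the largest of any tested member in either region. The hippocampal call ended without Foxp1cKO replicate 16 (adjusted p = 0.061) or 19 (adjusted p = 0.062).

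The sequences upstream of Cdhr1 and Pcdh8 are shown because these were the 2 members with the largest cortical rises. Each line gives the 250 bases before the RefSeq start on the minus strand of GRCm38.p6, at chr14:37098348-37098597 for Cdhr1 and chr14:79771313-79771562 for Pcdh8, with CG dinucleotides in capitals. Cdhr1 holds 6 of them and Pcdh8 holds 11, against a median of 7.5 over the 36 member windows searched and 6.0 over all promoters. Those 36 windows leave out the clustered protocadherins and the other members named above as not searched. Neither window holds either forkhead string.
Cdhr1: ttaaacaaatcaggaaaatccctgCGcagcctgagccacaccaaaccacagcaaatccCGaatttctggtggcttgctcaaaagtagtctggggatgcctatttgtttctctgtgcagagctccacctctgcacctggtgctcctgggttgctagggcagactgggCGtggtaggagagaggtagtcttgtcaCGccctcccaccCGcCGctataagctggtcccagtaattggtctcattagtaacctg
Pcdh8: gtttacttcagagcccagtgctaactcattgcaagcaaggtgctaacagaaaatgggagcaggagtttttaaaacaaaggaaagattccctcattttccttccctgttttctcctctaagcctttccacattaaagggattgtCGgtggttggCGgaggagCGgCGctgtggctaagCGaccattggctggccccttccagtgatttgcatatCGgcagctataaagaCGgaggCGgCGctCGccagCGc

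None of the 11 tested non-clustered and 53 tested clustered protocadherins was called in hippocampus by limma or by edgeR. At an unadjusted p below 0.05 there were 4 non-clustered and 5 clustered genes with limma, and 2 and 4 with edgeR. Pcdh8, also named arcadlin, is an activity-induced delta-2 protocadherin of synapses, and its hippocampal values were 35.3, 36.2, 34.9 and 38.3 CPM in Foxp1cKO and 23.5, 22.2, 25.0 and 32.3 CPM in controls. Every Foxp1cKO value was above every control, yet the adjusted p was 0.055 at a log2 fold change of 0.50 ± 0.11. It was 0.0091 without control replicate 22, the highest control. Pcdh20 had 182, 264, 261 and 248 CPM in Foxp1cKO hippocampus and 291, 328, 301 and 346 CPM in control hippocampus, again without overlap (log2 fold change -0.42 ± 0.11, adjusted p = 0.095).

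The 3 Celsr and 3 tested Fat genes were not called in hippocampus by either tool, with an unadjusted p below 0.05 for none with limma and for 1 Fat gene with edgeR. Celsr2 had 172 ± 6.98 CPM in Foxp1cKO and 167 ± 12.1 CPM in controls. Celsr1, the least abundant of the Celsr genes, had 5.19 ± 1.25 CPM in Foxp1cKO and 3.87 ± 0.905 CPM in controls (adjusted p = 0.46). Celsr3, which guides long axon tracts, had 54.5 ± 7.50 CPM in Foxp1cKO and 48.3 ± 4.63 CPM in controls. Fat3 had 198 ± 23.0 CPM in Foxp1cKO and 227 ± 32.3 CPM in controls.

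**Figure D2:**
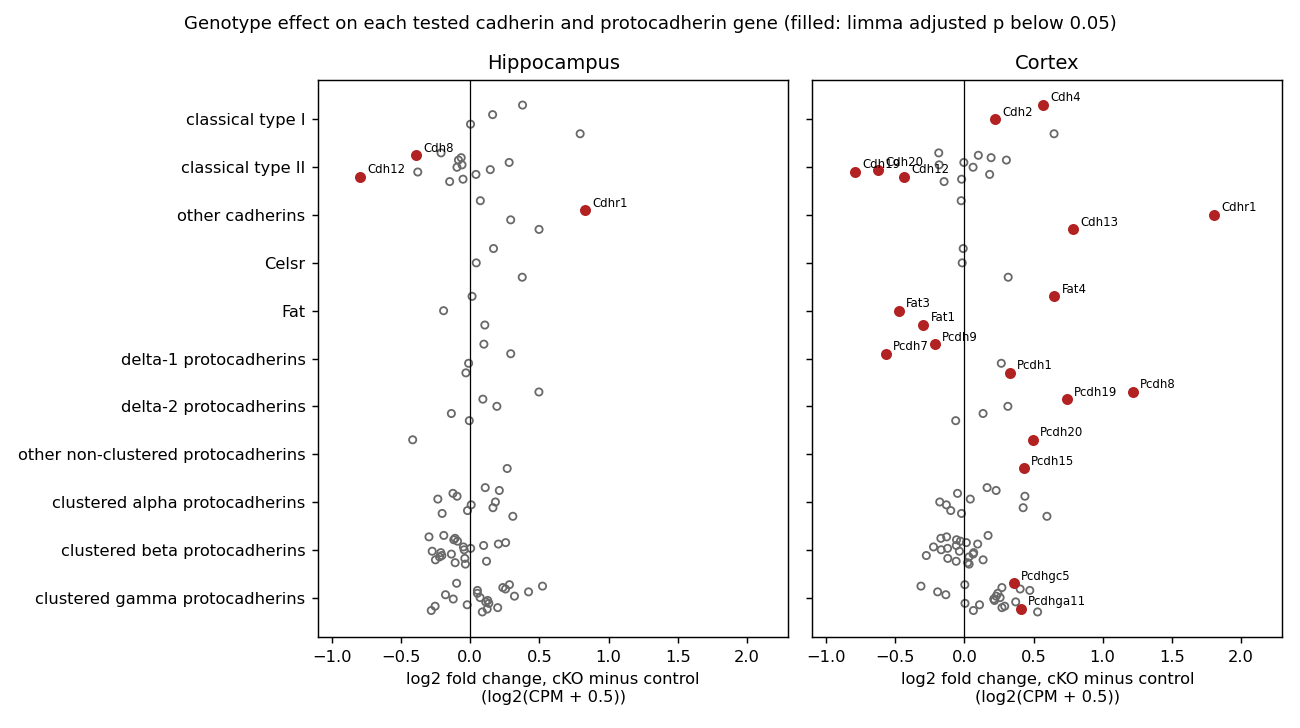
Log2 fold change, Foxp1cKO minus control (horizontal axis), of each tested member in hippocampus (left) and cortex (right), grouped by subfamily. Filled points passed an adjusted limma p of 0.05. They number 3 of 91 in hippocampus and 19 of 89 in cortex, where 7 of the 11 tested non-clustered and 2 of the 53 tested clustered protocadherins are filled.

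In cortex 19 of the 89 tested members passed (21.3%), against 13.5% of all 13713 genes tested. Of these, 12 rose (7.64% of all genes did) and 7 fell (5.83% of all genes did). Over all genes the split of 1047 higher and 800 lower turned to 829 and 951 with median-of-ratios rescaling, 886 and 921 with quantile normalization and 853 and 941 with edgeR, while the members were 11 higher and 8 lower with either rescaling. With edgeR 19 members were called too. The median log2 fold change was 0.06 over the members and 0.03 over all genes, and the median size of change was 0.19 over the members and 0.13 over all genes. The groups did not overlap for 22 members, against 17.7% of all genes. By class, 7 of 11 non-clustered protocadherins, 5 of 16 classical cadherins, 3 of 3 tested Fat genes, 2 of 3 other cadherins, 0 of 3 Celsr genes and 2 of 53 clustered protocadherins were called. Celsr genes had no unadjusted p below 0.05 with limma or edgeR.

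The cortical markers of oligodendrocytes and striatum given above moved with genotype. With the oligodendrocyte score as a covariate 5 of the 19 member calls held (Cdh13, Cdhr1, Fat3, Pcdh7 and Pcdh8), and over all genes 198 calls were left of 1847. With the striatal score 12 of the 19 held, among them those 5, and 817 calls were left over all genes. Standard errors were wider in these fits, with a median of 0.21 over the 19 members with the oligodendrocyte score and 0.14 with the striatal score, against 0.09 without. Of the 14 calls lost with the oligodendrocyte score, 7 kept an estimate within 1.5 times the original, 5 shrank by more (Cdh4, Fat1, Pcdh1, Pcdh9 and Pcdhga11) and 2 grew by more (Pcdh15 to 0.69 and Pcdh20 to 0.83). Of the 7 lost with the striatal score, 5 stayed within 1.5 times and 2 shrank by more, Cdh2 to 0.13 and Pcdhgc5 to 0.23. The part of these markers in the member changes beyond that was not tested.

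Among delta-1 protocadherins, whose tails can bind protein phosphatase, Pcdh7 (GRCm38 chr5:57717967-58133230, plus strand) fell in cortex. It had 517, 545, 538 and 541 CPM in Foxp1cKO and 715, 844, 785 and 832 CPM in controls. The Foxp1cKO libraries spanned a narrow range far below the lowest control (log2 fold change -0.57 ± 0.05, adjusted p = 9.88e-07). In hippocampus the order was opposite and the groups overlapped, at 364 ± 38.2 CPM in Foxp1cKO and 300 ± 57.4 CPM in controls (log2 fold change 0.29, adjusted p = 0.32). An annotated transcript on the opposite strand, 4932441J04Rik, overlaps 21.1% of the Pcdh7 exon length, and whether counting used strand is not stated.

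Pcdh9 also fell in cortex, by less, at 341, 327, 293 and 307 CPM in Foxp1cKO and 335, 371, 389 and 378 CPM in controls (log2 fold change -0.22 ± 0.06, adjusted p = 0.0191). Its groups overlapped by 1 library on each side. The call ended without Foxp1cKO replicate 4 or 5 (adjusted p = 0.068 and 0.056) and without control replicate 6, 7 or 8 (0.053, 0.077 and 0.067). Pcdh1 rose, at 106, 106, 138 and 122 CPM in Foxp1cKO and 90.9, 101, 90.2 and 91.1 CPM in controls (log2 fold change 0.33 ± 0.08, adjusted p = 0.00795). All Pcdh1 values of Foxp1cKO cortex were above those of the controls. The Pcdh1 estimate was 0.09 with the oligodendrocyte score (adjusted p = 0.90) and 0.33 with the striatal score (adjusted p = 0.14), and that of Pcdh9 was -0.10 with the oligodendrocyte score (adjusted p = 0.84). Together the 4 delta-1 genes, Pcdh7 included, summed to 1019 to 1047 CPM in Foxp1cKO cortex and 1193 to 1362 CPM in control cortex. Most of that difference came from Pcdh7, at 50.5 CPM per kb of exon in Foxp1cKO cortex and 74.9 in control cortex. Pcdh9 had 46.7 CPM per kb in Foxp1cKO cortex and 54.3 in control cortex, while Pcdh1 and Pcdh11x were higher in Foxp1cKO.

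Among delta-2 protocadherins Pcdh8 and Pcdh19 rose in cortex. Pcdh8 had 29.6, 23.5, 30.8 and 25.1 CPM in Foxp1cKO and 11.7, 10.6, 11.4 and 11.7 CPM in controls (log2 fold change 1.22 ± 0.11, adjusted p = 5.98e-07). Each Foxp1cKO value was about double any control or more, and the control values hardly differed. An antisense gene, Gm9748, covers 9.61% of the Pcdh8 exon length. Pcdh19 (GRCm38 chrX:133582860-133688987, minus strand), an X-linked epilepsy gene whose product pairs with N-cadherin, had 122, 102, 117 and 94.4 CPM in Foxp1cKO and 66.5, 64.0, 65.9 and 62.5 CPM in controls. The groups were far apart (log2 fold change 0.74 ± 0.08, adjusted p = 2.86e-06).

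With the oligodendrocyte score as a covariate the estimate for Pcdh19 was 0.72 and its adjusted p 0.053. Of the other delta-2 genes, Pcdh10 had a log2 fold change of -0.06, Pcdh17 of 0.14 and Pcdh18 of 0.31 in cortex, none called. Pcdh20 and Pcdh15 rose in cortex among the remaining non-clustered genes. Pcdh20 had 88.7, 89.6, 54.1 and 52.6 CPM in Foxp1cKO and 53.5, 44.9, 47.8 and 49.5 CPM in controls (log2 fold change 0.49 ± 0.14, adjusted p = 0.0270). Replicates 1 and 2 stood well above all others, while replicates 4 and 5 were beside the highest control.

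The Pcdh20 call ended without Foxp1cKO replicate 1 or 2 (adjusted p = 0.087 and 0.11, log2 fold change 0.37 each) and without control replicate 6, 7 or 8 (0.085, 0.067 and 0.058). Within libraries numbered 4 to 8 the log2 fold change was 0.17 (adjusted p = 0.20). Pcdh15, known from the tip links of hair cells, had 95.9, 122, 84.1 and 104 CPM in Foxp1cKO and 94.8, 64.5, 70.0 and 71.8 CPM in controls (log2 fold change 0.43 ± 0.11, adjusted p = 0.0139). The groups overlapped through control replicate 3. This call ended without Foxp1cKO replicate 2 or control replicate 6 (adjusted p = 0.060 each).

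Of the type I cadherins, Cdh4 (R-cadherin) and Cdh2 rose in cortex. Cdh4 had 30.5, 32.2, 38.9 and 39.3 CPM in Foxp1cKO and 23.8, 23.0, 20.5 and 26.8 CPM in controls, without overlap (log2 fold change 0.57 ± 0.10, adjusted p = 0.00104). Its hippocampal values were widely spread, from 18 to 41.3 CPM in Foxp1cKO and from 13.2 to 38.8 CPM in controls. In 1 fit over all 16 libraries, which shares 1 spread between regions, the cortical Cdh4 estimate kept its size with an adjusted p of 0.20. With the oligodendrocyte score it was 0.12 (adjusted p = 0.88).

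Cdh2 had 227, 224, 231 and 237 CPM in Foxp1cKO cortex and 182, 185, 219 and 203 CPM in control cortex (log2 fold change 0.22 ± 0.06, adjusted p = 0.0183). Every Foxp1cKO value was above every control by a small margin. The call ended without Foxp1cKO replicate 5 (adjusted p = 0.055) or control replicate 6 (adjusted p = 0.072), and with edgeR (adjusted p = 0.066). It also ended with median-of-ratios rescaling (adjusted p = 0.067), the oligodendrocyte score (0.54) and the striatal score (0.51).

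Type II members called in cortex all fell: Cdh12, Cdh19 and Cdh20. Cdh19, best known from glial precursors of peripheral nerve, had 12.1, 17.2, 25.4 and 26.4 CPM in Foxp1cKO and 27.0, 31.3, 47.5 and 32.6 CPM in controls (log2 fold change -0.79 ± 0.20, adjusted p = 0.0118). The lowest values were those of Foxp1cKO replicates 1 and 2, and the call ended without control replicate 7 (adjusted p = 0.053). The Cdh19 call was also lost in 1 fit over all 16 libraries (adjusted p = 0.055). With the oligodendrocyte score it was lost at an estimate of -0.99 (adjusted p = 0.39). Cdh20 had 17.1, 16.7, 14.3 and 12.1 CPM in Foxp1cKO and 24.4, 23.3, 22.5 and 23.0 CPM in controls (log2 fold change -0.63 ± 0.11, adjusted p = 0.000870). Its groups were well separated, and the call was lost with the oligodendrocyte score (-0.56, adjusted p = 0.41) and with the striatal score (-0.53, adjusted p = 0.094) at estimates of similar size. Cdh11 and Cdh10, the most abundant type II genes, were not called, at 156 ± 2.62 CPM in Foxp1cKO and 158 ± 14.8 CPM in controls for Cdh11, and 95.9 ± 4.34 CPM in Foxp1cKO and 106 ± 5.81 CPM in controls for Cdh10.

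Cdh13, or T-cadherin, lacks a cytoplasmic tail and is held by a lipid anchor (GRCm38 chr8:118283733-119324921, plus strand). It rose in cortex, with 144, 137, 139 and 127 CPM in Foxp1cKO and 89.9, 70.3, 83.1 and 73.6 CPM in controls (log2 fold change 0.79 ± 0.07, adjusted p = 1.17e-06). The lowest Foxp1cKO value was far above the highest control. In hippocampus it had 126, 100, 77.3 and 83.7 CPM in Foxp1cKO and 66.3, 54.3, 73.4 and 77.3 CPM in controls (log2 fold change 0.50 ± 0.15, adjusted p = 0.14).

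All 3 tested Fat genes changed in cortex. Fat1 fell, with 56.8, 62.7, 56.5 and 56.2 CPM in Foxp1cKO and 75.2, 67.6, 75.9 and 67.5 CPM in controls (log2 fold change -0.30 ± 0.07, adjusted p = 0.00637). Fat3, which shapes retinal dendrites, fell with 195, 236, 256 and 246 CPM in Foxp1cKO and 325, 340, 297 and 327 CPM in controls (log2 fold change -0.47 ± 0.07, adjusted p = 0.000178). Fat4, the partner of the cadherin Dchs1, rose with 31.7, 41.1, 37.8 and 36.0 CPM in Foxp1cKO and 23.4, 25.8, 21.2 and 22.2 CPM in controls (log2 fold change 0.65 ± 0.10, adjusted p = 0.000126). None of the 3 showed overlapping groups. An antisense gene, C230034O21Rik, covers 7.04% of the Fat4 exon length. With the oligodendrocyte score as a covariate Fat1 was -0.15 (adjusted p = 0.78) and Fat4 was 0.54 (adjusted p = 0.32), neither called. With the striatal score Fat1 was -0.28 (adjusted p = 0.18), not called either. Celsr2 had 149 ± 9.75 CPM in Foxp1cKO cortex and 151 ± 4.11 CPM in control cortex, and Celsr3 had 46.1 ± 6.12 CPM in Foxp1cKO cortex and 46.1 ± 1.77 CPM in control cortex.

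**Figure D3:**
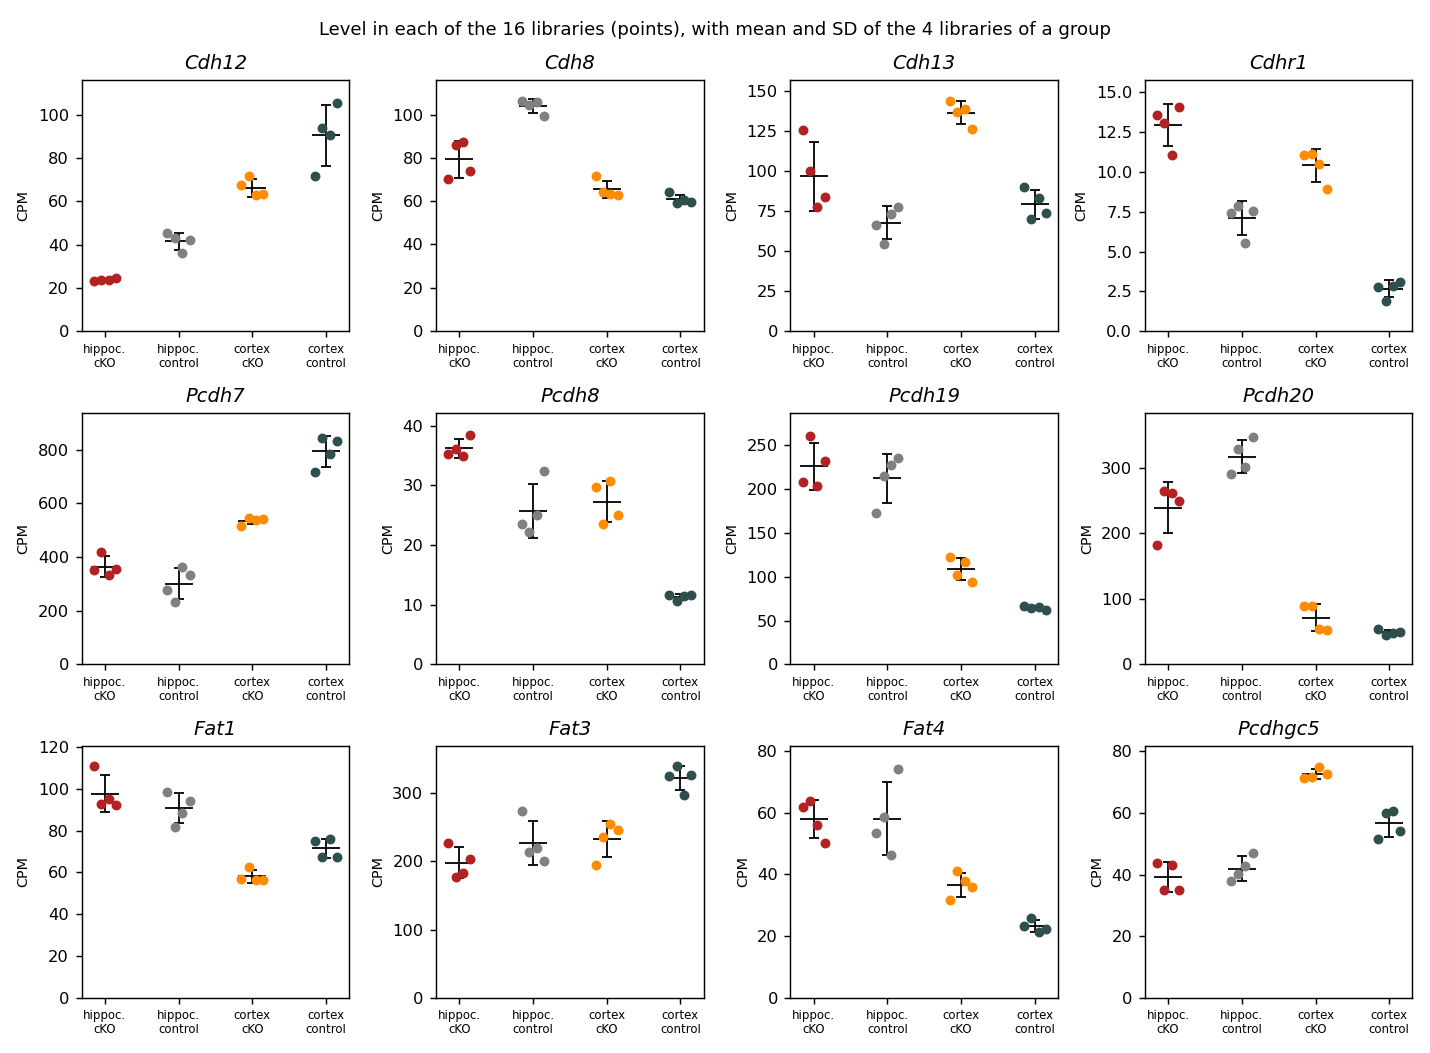
CPM (vertical axes, each from 0) of 12 members in the 16 libraries (points), with the mean and SD of the 4 libraries of each group (bars). Cdh12 and Cdhr1 differ between genotypes in both regions. Cdh13, Pcdh7, Pcdh8, Pcdh19, Fat1, Fat3, Fat4 and Pcdhgc5 are apart in cortex. In hippocampus Cdh8 and Pcdh20 are lower and Pcdh8 is higher in every Foxp1cKO library than in any control. Of these, Pcdh20 and Pcdh8 were not called there.

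Few clustered protocadherins passed the test. In cortex Pcdhgc5 and Pcdhga11 rose, both in the gamma cluster, and none of the 11 alpha or 21 beta genes was called by limma, with 1 of each at an unadjusted p below 0.05. edgeR called 0 alpha genes and 1 beta gene, Pcdhb16 (adjusted p = 0.045). Pcdhgc5, a C-type gamma isoform, had 71.3, 71.6, 75.1 and 72.6 CPM in Foxp1cKO and 51.6, 60.0, 60.6 and 54.3 CPM in controls (log2 fold change 0.36 ± 0.07, adjusted p = 0.00144). Pcdhga11 had 25.0, 23.0, 27.1 and 22.4 CPM in Foxp1cKO and 18.4, 16.9, 18.9 and 18.7 CPM in controls (log2 fold change 0.41 ± 0.10, adjusted p = 0.00728). In both genes all Foxp1cKO values exceeded all controls, and both calls were lost with either marker score. The estimate of Pcdhgc5 was 0.41 with the oligodendrocyte score and 0.23 with the striatal score, and that of Pcdhga11 was 0.25 with the oligodendrocyte score and 0.49 with the striatal score.

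The median cortical log2 fold change was 0.24 over the 21 gamma genes, -0.04 over the 21 beta genes and 0.04 over the 11 alpha genes, beside 0.03 over all genes. The gamma genes summed to 308 to 321 CPM in Foxp1cKO cortex and 257 to 280 CPM in control cortex. In hippocampus the gamma sums were 279 to 330 CPM in Foxp1cKO and 265 to 290 CPM in controls, which overlapped. Isoforms of the alpha cluster share their last exons, as do those of the gamma cluster, and how reads of those shared exons were counted is not stated.

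Among the named cluster genes that were not called, Pcdhb16 had 18.8 ± 2.04 CPM in Foxp1cKO cortex and 22.7 ± 0.617 CPM in control cortex (adjusted p = 0.076). Pcdha1 had the smallest p of the alpha genes, at 1.45 ± 0.555 CPM in Foxp1cKO cortex and 0.766 ± 0.261 CPM in control cortex. The most abundant alpha gene, Pcdhac2, had 18.3 ± 2.25 CPM in Foxp1cKO cortex and 16.3 ± 1.63 CPM in control cortex. Neither alpha gene was called. Pcdhb22, Pcdhb19 and Pcdhgc3, the other abundant cluster genes, were not called in either region. In cortex they had 28.6 ± 1.15, 29.4 ± 2.11 and 32.2 ± 3.33 CPM in Foxp1cKO and 30 ± 4.20, 30.2 ± 3.35 and 32.0 ± 1.07 CPM in controls. In hippocampus they had 29 ± 1.07, 21.3 ± 2.88 and 39.6 ± 6.12 CPM in Foxp1cKO and 27.2 ± 2.67, 25.8 ± 2.55 and 32.4 ± 4.28 CPM in controls. Pcdha5 had 7.56 ± 1.65 CPM in Foxp1cKO cortex and 8.50 ± 0.719 CPM in control cortex. In hippocampus the gamma gene with the smallest p was Pcdhgb8, at 2.26 ± 0.399 CPM in Foxp1cKO and 1.44 ± 0.406 CPM in controls (adjusted p = 0.30).

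**Figure D4:**
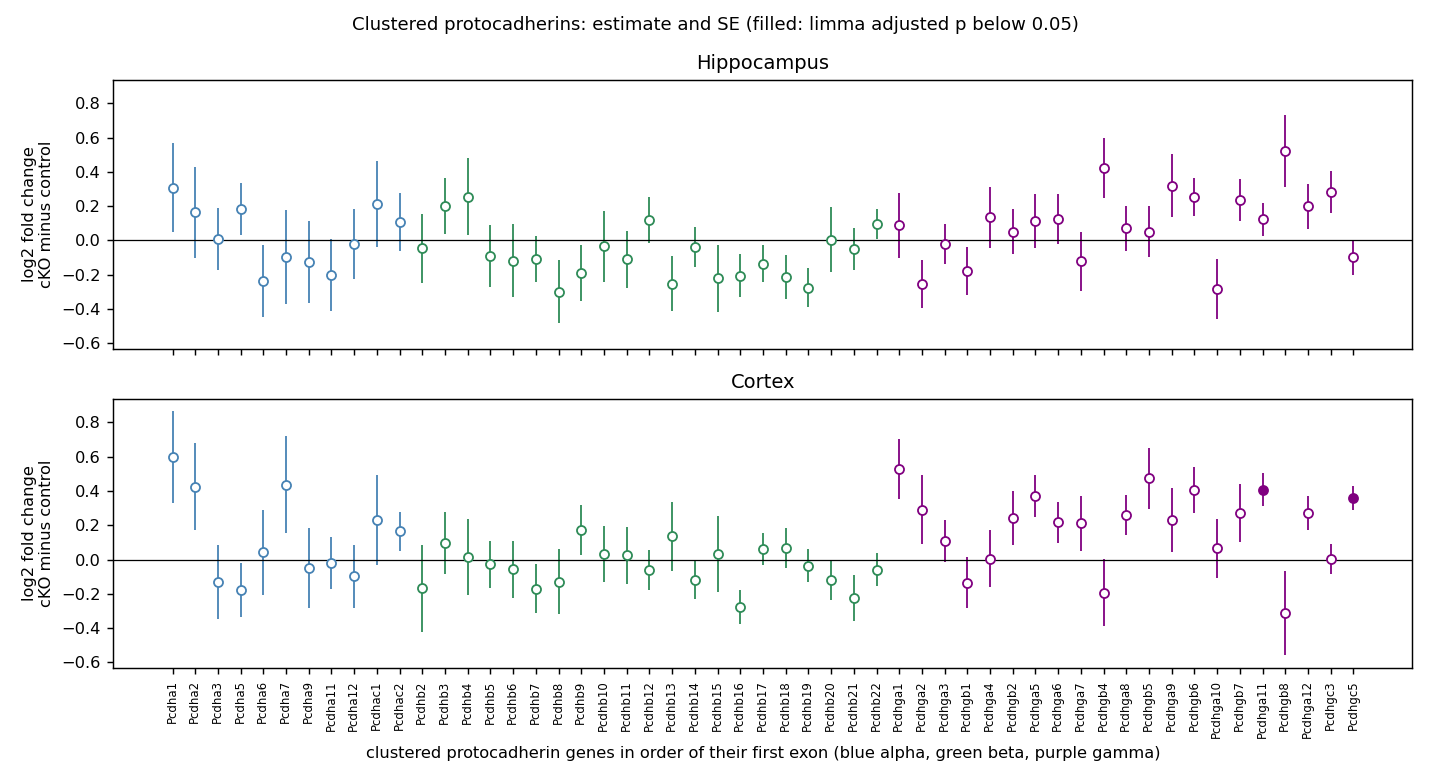
Log2 fold change with its SE, Foxp1cKO minus control (vertical axis), of the tested clustered protocadherins in hippocampus (above) and cortex (below), in the order of their first exons along the clusters. No point is filled in hippocampus, and Pcdhga11 and Pcdhgc5 are filled in cortex, where the gamma genes have a median of 0.24.

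Of 61 genes known to work with cadherins (catenins, the WAVE complex, kinases and proteases, polarity partners, regulators of the protocadherin clusters and further cadherin relatives), 54 were tested. In hippocampus limma and edgeR called 0 of them, with 10 at an unadjusted p below 0.05 in each. In cortex 7 of the 54 rose and 3 fell, against 13.5% of all genes called, 7.64% higher and 5.83% lower. Ptk2b, the kinase Pyk2 that binds protocadherin tails, rose with 408, 468, 486 and 459 CPM in Foxp1cKO and 327, 352, 362 and 337 CPM in controls (log2 fold change 0.40 ± 0.06, adjusted p = 8.29e-05). All Foxp1cKO values were above the controls.

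Of the 12 tested catenins, 1 rose and 1 fell in cortex. Beta-catenin (Ctnnb1) rose by a log2 fold change of 0.25, with 378, 363, 371 and 353 CPM in Foxp1cKO and 325, 304, 303 and 299 CPM in controls. Alpha-catenin (Ctnna1), which ties beta-catenin to actin, fell with 55.1, 52.7, 58.3 and 66.2 CPM in Foxp1cKO and 65.4, 72.8, 81.0 and 74.3 CPM in controls (log2 fold change -0.34, adjusted p = 0.00896). The alpha-catenin groups touched, through Foxp1cKO replicate 5 and control replicate 3. The WAVE complex genes Wasf1 and Abi2 rose by 0.31 and 0.22, Fjx1 by 0.47, Prickle2 by 0.23 and Wiz by 0.34 on the log2 scale. The calsyntenin Clstn2 and the polarity gene Prickle1 had log2 fold changes of -0.46 and -0.23.

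Of these 10 calls, Clstn2 alone held with the oligodendrocyte score as a covariate (adjusted p = 0.0172). The other 9 were lost while 7 of them kept an estimate within 1.5 times the original, such as 0.27 for Ctnnb1 and -0.30 for Ctnna1, Prickle2 shrank to 0.10 and Prickle1 grew to -0.42. Leaving out 1 library ended the calls of 3 genes. For Fjx1 the adjusted p was 0.077 without Foxp1cKO replicate 2, and 0.060, 0.071 and 0.054 without control replicate 6, 7 or 8. For Prickle1 it was 0.057 and 0.074 without Foxp1cKO replicate 1 or 2, and 0.094 and 0.058 without control replicate 6 or 8. For Wiz it was 0.051 without Foxp1cKO replicate 1, and 0.062 and 0.052 without control replicate 7 or 8.

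Whether a genotype effect differed between the regions was tested as an interaction over all 16 libraries. The effect in hippocampus minus that in cortex passed for 9 of 90 members (10.0%), against 2.72% of 13881 genes. The difference was positive for 3 members (1.17% of all genes) and negative for 6 (1.55%). With edgeR 10 members were called. No clustered protocadherin was called by limma, with 4 of 53 at an unadjusted p below 0.05, and edgeR called 1. Pcdhgc5 came nearest with limma, at -0.46 ± 0.12 and an adjusted p of 0.051. The interaction was not fitted with a marker score. Of 10 oligodendrocyte markers, limma and edgeR called 0 for the interaction, with 9 and 7 at an unadjusted p below 0.05. Of 8 striatal markers they also called 0, with 0 and 1 at an unadjusted p below 0.05. The part of these markers in the interaction was not tested.

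Estimates of opposite sign in the regions were found for Pcdh7 and Pcdh20, and also for Cdh8, Cdh20 and Fat1. The hippocampal estimates of Pcdh7 and Pcdh20 were not called. For Pcdh7 the log2 fold change was 0.29 in hippocampus and -0.57 in cortex, a difference of 0.86 ± 0.14 (adjusted p = 0.0015). For Pcdh20 it was -0.42 in hippocampus and 0.49 in cortex, a difference of -0.91 ± 0.21 (adjusted p = 0.021). The Pcdh20 difference was not called without control cortex replicate 6 (adjusted p = 0.051). Cdh20 differed by 0.77 ± 0.18 (adjusted p = 0.022), its hippocampal values being 15.0 ± 2.63 CPM in Foxp1cKO and 13.4 ± 1.55 CPM in controls. That call ended without control hippocampus replicate 20 or 21 (adjusted p = 0.054 and 0.050).

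Cdhr1, Pcdh8 and Pcdh19 had lower estimates in hippocampus than in cortex, with differences of -0.97 ± 0.21 (adjusted p = 0.014), -0.72 ± 0.15 (adjusted p = 0.012) and -0.65 ± 0.14 (adjusted p = 0.011). Pcdh19 had 226 ± 26.5 CPM in Foxp1cKO hippocampus and 212 ± 28.2 CPM in control hippocampus. Cdh8 differed by -0.49 ± 0.10 (adjusted p = 0.0087), with its fall in hippocampus and no call in cortex. Fat1 and Fat4 differed by 0.40 ± 0.10 (adjusted p = 0.043) and -0.64 ± 0.17 (adjusted p = 0.045). In hippocampus Fat1 had 97.8 ± 8.84 CPM in Foxp1cKO and 90.8 ± 7.25 CPM in controls, and Fat4 had 58.0 ± 6.17 CPM in Foxp1cKO and 58.1 ± 11.9 CPM in controls.

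The Fat1 difference was not called without hippocampal Foxp1cKO replicate 15 or control replicate 20, 21 or 22 (adjusted p = 0.070, 0.11, 0.081 and 0.055). The same held without cortical Foxp1cKO replicate 1, 4 or 5 (0.071, 0.090 and 0.082) or control replicate 3, 6, 7 or 8 (0.081, 0.051, 0.094 and 0.052). The Fat4 difference was not called without hippocampal Foxp1cKO replicate 18 or 19 or control replicate 20 or 22 (0.067, 0.10, 0.091 and 0.082). Nor was it called without cortical Foxp1cKO replicate 2, 4 or 5 (0.097, 0.091 and 0.072) or control replicate 3, 7 or 8 (0.067, 0.095 and 0.089). Of the partner genes, Ptk2b (-0.47), Prickle2 (-0.49) and Ctnna1 (0.56) differed between the regions.

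The regions themselves were then compared within each genotype, hippocampus minus cortex. In Foxp1cKO mice 36 of 90 members differed, against 37.3% of all genes, with 18 higher (22.2% of all genes) and 18 lower (15.2%) in hippocampus. With quantile normalization the split was 14 higher and 22 lower, and with median-of-ratios rescaling 14 higher and 19 lower. Over all genes the split of 3076 higher and 2105 lower was 2581 and 2697 with quantile normalization. In control mice 34 of 90 members differed, against 38.0% of all genes, with 18 higher (21.3% of all genes) and 16 lower (16.7%). The groups did not overlap for 27 members in Foxp1cKO mice (33.1% of all genes) and 30 in controls (36.8% of all genes).

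By subfamily, 10 of 13 type II cadherins differed between the regions in Foxp1cKO mice and 11 of 13 in controls. Non-clustered protocadherins differed in 8 of 11 cases in both genotypes. Clustered protocadherins did so in 11 of 53 in Foxp1cKO mice and 8 of 53 in controls. The median size of the region difference over type II cadherins was 0.71 on the log2 scale in Foxp1cKO mice and 0.78 in controls, beside 0.22 over all genes in each genotype. Beside these region differences, 9 of 10 oligodendrocyte markers were higher in hippocampus in Foxp1cKO mice. In controls 0 of 10 were called by limma or by edgeR, with 1 at an unadjusted p below 0.05 by each, and the part of these markers was not tested.

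Among type II cadherins Cdh6, Cdh7, Cdh18 and Cdh22 were lower in hippocampus in both genotypes. Cdh6 had 7.91, 3.89, 6.99 and 6.97 CPM in Foxp1cKO hippocampus and 25.8, 32.5, 27.8 and 27.5 CPM in Foxp1cKO cortex (log2 fold change -2.09 ± 0.18). In controls Cdh6 had 8.35, 6.45, 7.34 and 4.93 CPM in hippocampus and 17.4, 24.3, 26.1 and 24.5 CPM in cortex (log2 fold change -1.71 ± 0.18). No library of 1 region reached the range of the other.

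The region difference of Cdh7 was -1.43 in Foxp1cKO mice and -1.17 in controls, that of Cdh18 was -1.42 in Foxp1cKO mice and -1.28 in controls, and that of Cdh22 was -1.44 in Foxp1cKO mice and -1.28 in controls. Cdh9, a synapse cadherin of the hippocampal mossy fibres, was higher in hippocampus at 0.95 in Foxp1cKO mice and 0.98 in controls, and was named after its values were seen. Type II cadherins thus lay on both sides of 0, with 4 higher and 6 lower in Foxp1cKO mice and 4 higher and 7 lower in controls.

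Pcdh20 had the largest region difference of any tested member in controls. It had 182 to 264 CPM in Foxp1cKO hippocampus and 52.6 to 89.6 CPM in Foxp1cKO cortex (log2 fold change 1.77 ± 0.15). In controls it had 291 to 346 CPM in hippocampus and 44.9 to 53.5 CPM in cortex (2.68 ± 0.15). Pcdh19 was likewise higher in hippocampus, by 1.05 ± 0.10 in Foxp1cKO mice and 1.70 ± 0.10 in controls, and Fat4 by 0.65 ± 0.12 in Foxp1cKO mice and 1.29 ± 0.12 in controls.

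Pcdh7 was lower in hippocampus, with a log2 fold change of -0.56 ± 0.10 in Foxp1cKO mice and -1.42 ± 0.10 in controls. Cdhr1 was higher in control hippocampus than in control cortex (1.27 ± 0.15, adjusted p = 9.34e-07), while in Foxp1cKO mice the difference was 0.30 ± 0.15 (adjusted p = 0.12). Cdh20 was lower in control hippocampus (-0.78 ± 0.13), against -0.01 ± 0.13 in Foxp1cKO mice. The interaction tests above are the tests of these changes between genotypes.

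Cdhr3, a cadherin of ciliated epithelia, had 4.70 ± 0.679 CPM in Foxp1cKO hippocampus and 0.629 ± 0.440 CPM in Foxp1cKO cortex. In controls it had 4.52 ± 1.24 CPM in hippocampus and 0.602 ± 0.346 CPM in cortex. Choroid plexus and ependymal markers moved with it, 8 of 8 being called higher in hippocampus in each genotype. Their sums were 934 to 1830.2 CPM in Foxp1cKO hippocampus and 6.83 to 233 CPM in Foxp1cKO cortex. In controls they were 573 to 1047 CPM in hippocampus and 5.85 to 157 CPM in cortex, and their part in the Cdhr3 difference was not tested.

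**Figure D5:**
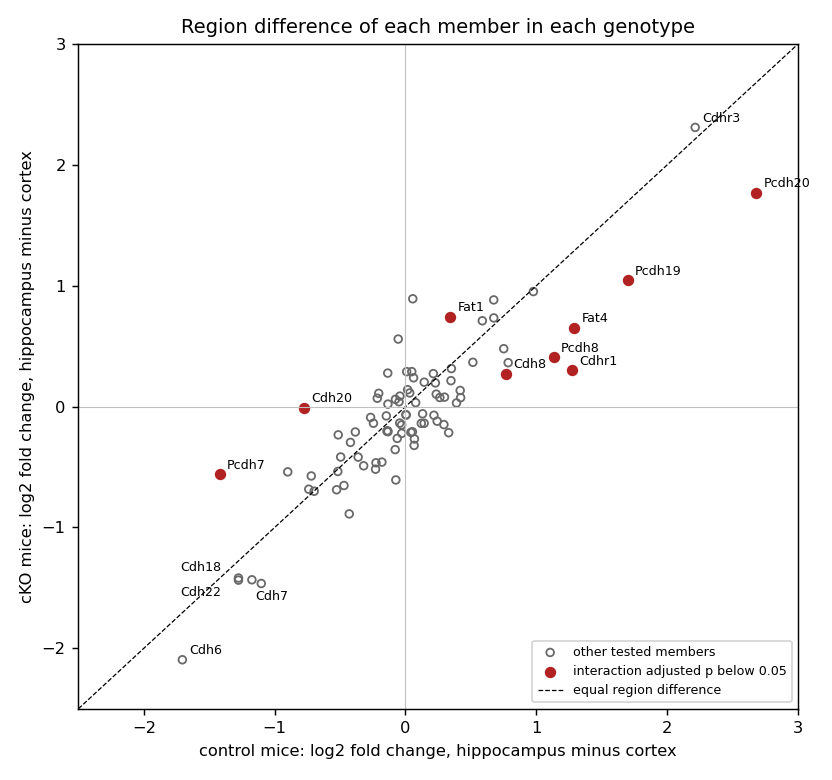
Log2 fold change, hippocampus minus cortex, of the 90 tested members in Foxp1cKO mice (vertical axis) and in control mice (horizontal axis), with the line of equal differences (dashed). The 9 filled members passed the interaction test, and Pcdh20, Pcdh19, Fat4, Pcdh8, Cdhr1 and Cdh8 lie below the line while Pcdh7, Cdh20 and Fat1 lie above it.

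The authors' deposited table of differentially expressed genes for hippocampus lists 243 genes, 4 of them members. Cdh12, Cdh8 and Cdhr1 stand there with log2 fold changes of -0.87, -0.44 and 0.81, and the authors' deposited table also holds Pcdh20 at -0.46 with an adjusted p of 0.000296, which limma gave at 0.095. For cortex the authors' deposited table lists 874 genes, of which 14 are members, 9 higher and 5 lower, and all 14 were called here in the same direction. The 5 members called in cortex but not listed in the authors' deposited table were Cdh2, Fat1, Pcdh9, Pcdhga11 and Pcdhgc5. The calls here used no minimum fold change and were not matched to the authors' thresholds. The smallest change among the 14 listed members was 0.30, for Pcdh1. Estimates here were 0.22 for Cdh2, -0.22 for Pcdh9, -0.30 for Fat1, 0.36 for Pcdhgc5 and 0.41 for Pcdhga11.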

How the data were processed

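Poly(A) RNA of 16 libraries was sequenced on a NextSeq 500, per the labels' protocols. The submitters' processing notes name STAR, HTSeq and edgeR and the builds mm10 and GRCm38. For versions, annotation and strand, the sources used here give nothing. The deposited values are CPM per gene, made by the authors. CPM steps gave whole reads for 100.0% of values (tolerance 0.001 reads). The authors' deposited tables of differential genes hold log2 fold changes and adjusted p-values.

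The main test was limma 3.58.1 (R 4.3.3) with a mean-variance trend on log2(CPM + 0.5), run on genes averaging 0.5 CPM or more, within each region for genotype and over all 16 libraries for the interaction and the regions. Adjusted p-values are Benjamini-Hochberg values over all genes tested. In sentences on edgeR, version 4.0.16 tested the recovered reads (quasi-likelihood, TMM) and called 190 genes in hippocampus, 1794 in cortex and 354 for the interaction. The limma scripts were tested on simulated data. Errors on log2 fold changes are SE. P-values measure the spread between libraries, which covers biological replicates as the design text describes them. The members, marker lists and partner lists were chosen with earlier results of these data known. Named members were those called for genotype or interaction, the 10 largest called region differences in controls, the most abundant and the smallest-p members of each subfamily, those in the authors' tables, and called partner genes. Alternatives were the pseudocount (0.1 or 1 CPM), the expression minimum, scaling, robust variances, edgeR, 1 fit over all libraries, each library left out, a subset by library number, and an oligodendrocyte (myelin) marker score, the mean log2(CPM + 0.5) of that list, as covariate. A striatal marker score made likewise was added after seeing the data. Gene positions are from GENCODE on GRCm38 and upstream sequences from RefSeq on GRCm38.p6.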

Additional observations from a re-analysis of the deposited data

Results flagged for a closer look

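Single libraries stood apart from the other 3 of their group for 11 values, by Dixon's gap test at the 95% level. Chance alone flags about 1 in 20 groups, and 156 groups were examined. High values were Fat1 at 111 CPM and Celsr3 at 65.7 CPM in Foxp1cKO hippocampus replicate 15, Pcdh9 at 392 CPM in control hippocampus replicate 17, Cdh8 at 71.4 CPM in Foxp1cKO cortex replicate 1, Celsr1 at 4.78 CPM and Fat1 at 62.7 CPM in Foxp1cKO cortex replicate 2, Cdh11 at 181 CPM in control cortex replicate 3 and Pcdh1 at 101 CPM in control cortex replicate 6. Low values were Cdh22 at 2.99 CPM in Foxp1cKO hippocampus replicate 18, Celsr2 at 149 CPM in control hippocampus replicate 17 and Celsr2 at 145 CPM in control cortex replicate 8.

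Genotype effects differed between the regions, by the interaction test, for 9 members. As hippocampus minus cortex on the log2 scale, the differences were 0.86 for Pcdh7, 0.77 for Cdh20, 0.40 for Fat1, -0.49 for Cdh8, -0.64 for Fat4, -0.65 for Pcdh19, -0.72 for Pcdh8, -0.91 for Pcdh20 and -0.97 for Cdhr1.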

How the results depend on the processing

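Over all alternatives 2033 values kept their side of the threshold, 117 lost the call and 9 gained one. No called value changed sign, while 39 of the 2033, in 12 uncalled results such as Cdh2 and Cdh4 in hippocampus and Pcdhgc3 in cortex, did. In hippocampus 5 members were called with all 16 libraries in 1 fit, and 1 to 3 with 1 library left out (1 without Foxp1cKO replicate 16 or 19). In cortex 5 members were called with the oligodendrocyte score and 12 with the striatal score as covariate, and 15 to 21 with 1 library left out. Neither the oligodendrocyte nor the striatal marker sums of the genotypes overlap in cortex, so that each of these covariates carries information shared with genotype. The interaction called 6 to 12 members with 1 library left out, and the region comparison 29 to 38 in Foxp1cKO mice and 30 to 38 in controls. Pcdh8 in hippocampus was called with robust variances (adjusted p = 0.044), with 1 fit over all libraries (0.013) and with either covariate (0.019 and 0.0089). Cdh13 in hippocampus was called in 1 fit over all libraries (0.032). In cortex Cdh19, Pcdh15 and Pcdh20 were not called with robust variances (0.14, 0.066 and 0.17). In the subset of libraries numbered 4 to 8 and 18 to 22, Cdh8 and Cdhr1 in hippocampus (0.063 and 0.070) and the Cdhr1 interaction (0.094) were not called. No paired analysis was possible because no library number is shared between groups. Depth limits members of a few CPM, where 1 read is worth 0.0675 to 0.144 CPM.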
